A study of Oryza sativa with 12 samples.

Results

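The vacuole of a plant cell holds most of its water, and tonoplast intrinsic proteins (TIPs) are the aquaporins that let water cross its membrane, the tonoplast. In Arabidopsis, TIP1 proteins also carry urea and hydrogen peroxide and TIP2-1 also carries ammonia. Rice takes up silicon through a related branch, the nodulin 26-like intrinsic proteins (NIPs): Lsi1 (NIP2-1) lets silicic acid and arsenite into root exodermis and endodermis, and Lsi6 (NIP2-2) moves silicon out of the xylem in leaves and nodes. The genes described here are 5 TIPs and these 2 silicon channels, 7 loci of the 42004 in the deposited table, chosen by their locus IDs. TIP and PIP names are spelled with a hyphen, a form RefSeq also lists (TIP1-1 for OsTIP1;1). They are TIP1-1 (LOC_Os03g05290), TIP1-2 (LOC_Os01g74450), TIP2-1 (LOC_Os02g44080), TIP2-2 (LOC_Os06g22960), TIP4-1 (LOC_Os05g14240), Lsi1 (LOC_Os02g51110) and Lsi6 (LOC_Os06g12310), on chromosomes 3, 1, 2, 6, 5, 2 and 6.

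The libraries, 12 in all and 3 in each of 4 groups, were made from poly(A) RNA of seedlings to ask how heat acts in a line labelled as lacking the glycine-rich RNA-binding proteins GRP3 and GRP162. The groups are dm_45C (grp3/grp162 double mutant after heat), dm_29C (the same line unheated), WT_45C (the japonica wild type ZH11 after heat) and WT_29C (ZH11 unheated). All seedlings grew at 29 °C in nutrient solution and were 8 days old, and heat was 45 °C for 18 h by the sample labels but 42 h by the treatment protocol. Whether the mutant is 1 line or several is unclear, because its genotype label changes with the replicate, and the labels do not say whether replicates were separate cultures. P-values therefore measure the spread between these libraries, which may be technical. The unit is FPKM, in which fragments are divided by the length of the transcript and the size of the library, so levels of different genes can be set side by side, while the read depth behind each value is unknown.

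Summed FPKM ran from 558435 to 599861 per library. GRP162 went against the mutant label in replicate 1 of both mutant groups, at 12466 FPKM in dm_45C and 3288 in dm_29C, above every wild type library of that temperature (up to 3720 in WT_45C and 1121 in WT_29C), while the other 4 libraries labelled double mutant lay between 218 and 746. GRP3 averaged 14172 ± 3360 in dm_45C, 2260 ± 1806 in dm_29C, 15674 ± 1080 in WT_45C and 4811 ± 835 in WT_29C (SD, n = 3 each). It too was highest in replicate 1 of both mutant groups. In dm_45C that library had 17604 FPKM, against 10888 and 14023 in replicates 2 and 3 and up to 16321 in WT_45C. In dm_29C it had 4340, within the WT_29C range of 3879 to 5489, against 1086 and 1355 in replicates 2 and 3. "Double mutant" below is the label of those libraries. For the TIPs and silicon channels defined at the opening, results are also given without both replicate 1 libraries where that changes a call. Calls of the other genes named below were not checked without both replicate 1 libraries. The tissue label is whole plant, yet of 11 root markers 3 (RCc3, NRT2.1 and CASP1, a Casparian strip protein of the root endodermis) were at 0 in all libraries. Together with these 3, a total of 8 stayed under 1 FPKM in every library. The root partner of Lsi1, the silicon exporter Lsi2, was at 0 in 11 libraries and at 0.03 FPKM in the other, and Lsi3, its relative in nodes, was at 0 in 11 and at 0.07 in the other. In bulk tissue, fewer cells of a type and less RNA per cell cannot be told apart.

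Heat changed 5 of the 7 genes in each line. In the double mutant TIP1-2 and Lsi6 rose and Lsi1, TIP4-1 and TIP2-1 fell; in the wild type TIP1-2, Lsi6 and TIP1-1 rose and Lsi1 and TIP4-1 fell. Mean FPKM of TIP1-2 was 9.31-fold higher in the heated double mutant and 9.55-fold higher in the heated wild type, and that of Lsi1 was lower by a factor of 9.24 and 17.2. These calls rest on limma with Benjamini-Hochberg adjustment over 20305 loci, at an adjusted p under 0.05. By the same rule 31.7% of all tested loci were called for heat in the double mutant (15.3% higher, 16.4% lower) and 29.1% in the wild type (13.3% higher, 15.8% lower). The median log2 difference of the 7 genes was 0.29 in the double mutant and 0.73 in the wild type, against -0.01 and -0.04 over all tested loci. Libraries at 45 °C and 29 °C did not overlap for 6 of the 7 genes in either line, against 47.6% of all tested loci in the double mutant and 42.6% in the wild type. The 7 genes and the other gene lists were chosen with earlier results of these data known. Counts set beside the share of all tested loci are therefore a description, here and below.

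**Figure D1:**
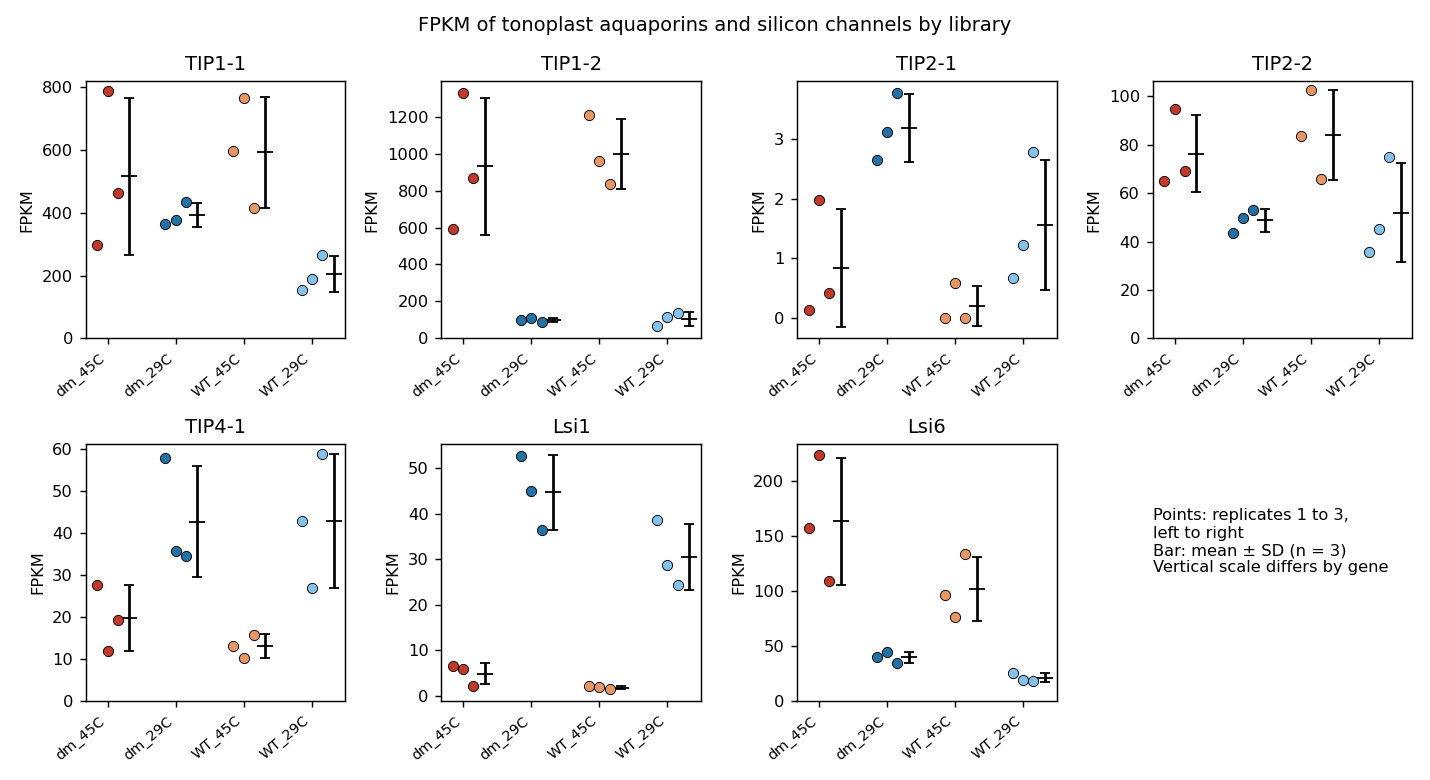
FPKM (vertical axes, scaled separately for each gene) of the 7 genes in every library, with the mean and SD of 3 replicates beside the points. Both 45 °C groups stand above both 29 °C groups for TIP1-2 and Lsi6 and below them for Lsi1, each 45 °C group stands below the 29 °C group of its own line for TIP4-1, and dm_45C and dm_29C overlap for TIP1-1.

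TIP1-2, a TIP1 water channel, rose most. It had 593, 1329 and 869 FPKM in dm_45C, against 97.7, 113 and 89.15 in dm_29C. In WT_45C it had 1206, 958.5 and 834 FPKM, against 64.9, 114 and 136 in WT_29C. The lowest heated library, at 593 FPKM, stood far above the highest unheated one, at 136. The means of 930 ± 372 in dm_45C and 99.9 ± 12 in dm_29C differ 9.31-fold, and those of 999 ± 189 in WT_45C and 105 ± 36.1 in WT_29C differ 9.55-fold. On the log2(FPKM + 1) scale the difference was 3.14 ± 0.32 (SE, limma adjusted p = 3.41e-05) in the double mutant and 3.29 ± 0.32 (adjusted p = 2.89e-05) in the wild type. Among 20305 tested loci these were the 110th and 120th highest differences. By mean FPKM over the whole table, TIP1-2 stood 34th in both dm_45C and WT_45C, but 739th in dm_29C and 720th in WT_29C.

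TIP1-1, the second TIP1 channel and the most abundant TIP of unheated seedlings, passed the test in the wild type alone. In the double mutant it had 297, 788 and 464 FPKM in dm_45C, against 364, 377 and 436 in dm_29C, and the groups overlapped. In the wild type it had 596, 767 and 414 FPKM in WT_45C, against 154, 191 and 267 in WT_29C, with no overlap. It rose in the wild type, 2.9-fold by the means (log2 difference 1.53 ± 0.34, limma adjusted p = 0.00565). In the double mutant the log2 difference was 0.29 ± 0.34 (adjusted p = 0.559, 95% interval -0.46 to 1.03), and it was -0.08 without dm_45C replicate 2, the highest library. The difference between both heat responses was -1.24 ± 0.48, with an unadjusted p of 0.024 and a limma adjusted p of 0.932. A difference between lines in this response is therefore not shown. At 29 °C all dm_29C libraries lay above all WT_29C libraries.

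TIP2-2, a TIP2 channel of middling level, was higher at 45 °C without passing the test. It had 65.03, 94.5 and 69.2 FPKM in dm_45C, against 43.6, 49.8 and 52.95 in dm_29C. In WT_45C it had 83.5, 103 and 65.8 FPKM, against 35.5, 45.2 and 74.8 in WT_29C. The mutant groups did not overlap, while WT_29C replicate 3 lay above WT_45C replicate 3. The log2 difference was 0.62 ± 0.26 (limma adjusted p = 0.0871) in the double mutant and 0.73 ± 0.26 (adjusted p = 0.0507) in the wild type. Without WT_29C replicate 3 both passed, at adjusted p = 0.0401 and 0.0094, and the wild type value was then 1.03. Over all alternatives the adjusted p ran from 0.0348 to 0.233 in the double mutant and from 0.0094 to 0.19 in the wild type.

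TIP2-1, whose Arabidopsis namesake carries ammonia as well as water, was the least abundant of the 7 and passed the FPKM minimum through 6 libraries, 5 of them unheated. It had 0.13, 1.97 and 0.41 FPKM in dm_45C, against 2.65, 3.12 and 3.78 in dm_29C. In WT_45C it was listed at 0 in replicates 1 and 3 and at 0.58 in replicate 2, against 0.66, 1.22 and 2.78 in WT_29C. Neither pair of groups overlapped, although 0.58 and 0.66 are close. It fell in the double mutant (log2 difference -1.31 ± 0.38, limma adjusted p = 0.0213) and did not pass in the wild type (-1.05 ± 0.38, adjusted p = 0.058). The added 1 is of the same order as these values, so the log2 differences understate the change. The call for TIP2-1 in the double mutant was lost in 6 of 20 alternatives (adjusted p 0.00339 to 0.113 over all 20): with 0.1 added in place of 1 (adjusted p = 0.0635), without dm_45C replicate 1 (0.084) or 3 (0.0737), without dm_29C replicate 2 (0.0542) or 3 (0.0674), and without both mutant replicate 1 libraries (0.113). Without dm_45C replicate 2 the fall was larger, at -1.72.

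TIP4-1, of a group that carries water and urea in Arabidopsis, fell in both lines. It had 27.7, 12.01 and 19.3 FPKM in dm_45C, against 57.9, 35.7 and 34.5 in dm_29C. In WT_45C it had 13.2, 10.3 and 15.8 FPKM, against 42.8, 26.9 and 58.8 in WT_29C. No 45 °C library reached the lowest 29 °C library of its line. The means were lower by a factor of 2.17 in dm_45C and 3.26 in WT_45C. The log2 difference was -1.11 ± 0.33 (limma adjusted p = 0.0222) in the double mutant and -1.58 ± 0.33 (adjusted p = 0.00374) in the wild type. The call in the double mutant was lost without dm_45C replicate 2 (adjusted p = 0.0767) or 3 (0.0515) and without dm_29C replicate 1 (0.0915), against 0.00602 to 0.0915 over 21 alternatives, while that of the wild type held in all 21.

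Lsi1, the silicon influx channel, fell furthest. It had 6.45, 5.93 and 2.13 FPKM in dm_45C, against 52.6, 45.1 and 36.3 in dm_29C. In WT_45C it had 2.14, 1.84 and 1.36 FPKM, against 38.6, 28.7 and 24.35 in WT_29C. The highest heated library lay below the lowest unheated one by a wide margin. The log2 difference was -3.05 ± 0.31 (limma adjusted p = 3.23e-05) in the double mutant and -3.49 ± 0.31 (adjusted p = 1.51e-05) in the wild type. Among the 20305 tested loci these were the 103rd and the 39th lowest differences. In unheated seedlings Lsi1 was far above the root markers: the summed FPKM of all 11 ran from 6.4 to 7.83 in dm_45C, from 3.75 to 7.55 in dm_29C, from 4.97 to 6.64 in WT_45C and from 1.75 to 3.24 in WT_29C. The heated and unheated sums overlapped in the double mutant and were apart in the wild type. Without the potassium channel AKT1 they overlapped in both lines, at 2.72 to 3.98 in dm_45C, 2.55 to 6.69 in dm_29C, 1.71 to 2.81 in WT_45C and 1.37 to 2.53 in WT_29C. Of the 3 root markers that were tested, AKT1 rose in both lines, by 1.20 (limma adjusted p = 0.00182) in the double mutant and 1.38 (adjusted p = 0.000855) in the wild type. The cadmium pump HMA3, which reached the FPKM minimum through heated libraries alone and is only described, ran from 1.19 to 1.29 FPKM in dm_45C, 0.18 to 0.41 in dm_29C, 0.43 to 1.2 in WT_45C and 0 to 0.65 in WT_29C. The ammonium transporter AMT1-3 passed in neither, at -0.72 (adjusted p = 0.109) in the double mutant and 0.03 (adjusted p = 0.953) in the wild type. The part of root RNA in the Lsi1 result was not tested.

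Lsi6, the channel that unloads silicon from the xylem, rose while its paralogue fell. It had 157, 223 and 109 FPKM in dm_45C, against 40.4, 44.65 and 34.6 in dm_29C. In WT_45C it had 96.2, 76.03 and 133 FPKM, against 25.8, 19.04 and 18.4 in WT_29C. Each heated group lay above both unheated groups. The means were 4.08-fold higher in dm_45C and 4.83-fold higher in WT_45C, with log2 differences of 1.95 ± 0.27 (limma adjusted p = 0.000229) and 2.20 ± 0.27 (adjusted p = 0.00012). All 3 xylem markers, the secondary wall cellulose synthases CESA4, CESA7 and CESA9, were higher after heat in both lines as well, at a far lower level. They reached the FPKM minimum through heated libraries alone, so their test carries no weight here and the sums are a description. Their summed FPKM ran from 6.67 to 8.98 in dm_45C, 0.38 to 0.66 in dm_29C, 3.9 to 11.2 in WT_45C and 0.2 to 0.47 in WT_29C. The part of the xylem cells in the Lsi6 result was not tested. The 6 leaf markers summed to less after heat, with some overlap in the wild type, at 1876 to 4823 FPKM in dm_45C, 5869 to 7824 in dm_29C, 2462 to 4080 in WT_45C and 3682 to 9808 in WT_29C, and their part was not tested either. RBCS2, RBCS3, RBCS4 and RCA carried that sum, and the 6 did not move together. RCA passed in neither line (limma adjusted p = 0.496 in the double mutant and 0.961 in the wild type). CAB1R, at a far lower level, was higher after heat. It ran from 2.38 to 6.91 FPKM in dm_45C, 0.05 to 0.51 in dm_29C, 4.07 to 5.62 in WT_45C and 0.31 to 1.87 in WT_29C.

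**Figure D2:**
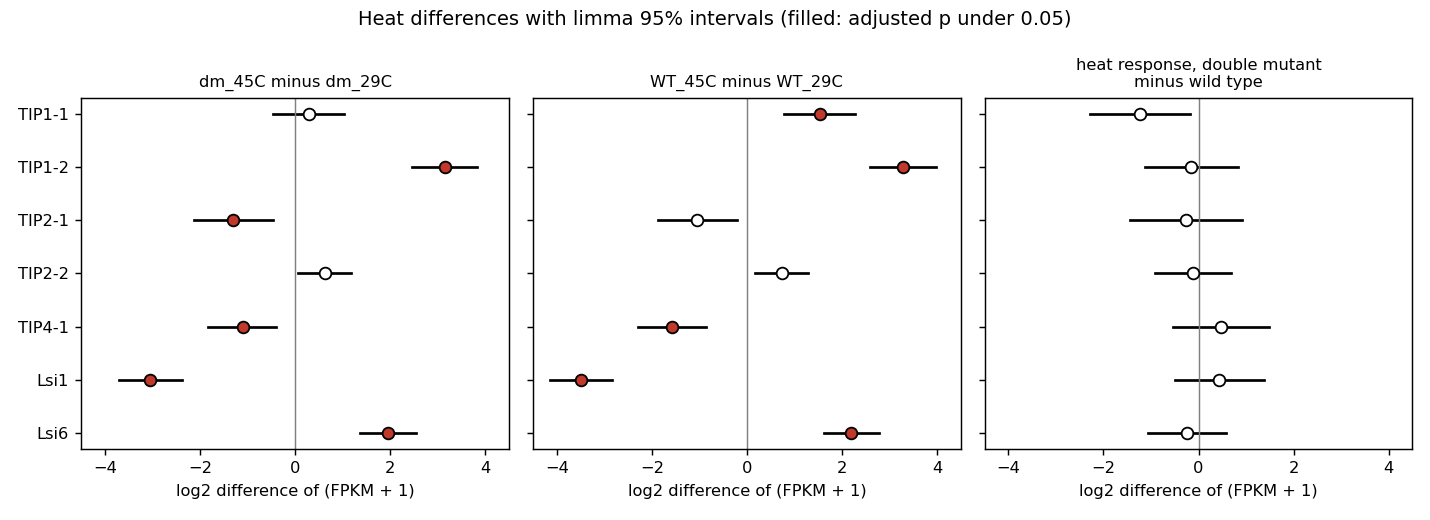
Heat differences on the log2(FPKM + 1) scale for the 7 genes in the double mutant and in the wild type, and the difference between both, with limma 95% intervals (horizontal axes in log2 units; filled points have an adjusted p under 0.05). TIP1-2 and Lsi6 lie to the right and Lsi1 and TIP4-1 to the left in both lines, and in the panel of differences the interval of TIP1-1 (-2.29 to -0.19) alone leaves out 0.

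The opposite moves of Lsi1 and Lsi6 turned their ratio over. Lsi6 per Lsi1 was 24.3, 37.6 and 51 in the dm_45C libraries, against 0.769, 0.99 and 0.953 in dm_29C. In WT_45C it was 45, 41.3 and 97.8, against 0.668, 0.663 and 0.754 in WT_29C. Lsi1 was thus the slightly more abundant channel in all 6 unheated libraries, and Lsi6 made up 96.1% or more of the pair in all 6 heated ones. The summed FPKM of both channels averaged 168 ± 59.2 in dm_45C, 84.6 ± 11.9 in dm_29C, 104 ± 28.6 in WT_45C and 51.6 ± 11.3 in WT_29C. The sum is higher in each heated library than in any unheated library of its line.

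**Figure D3:**
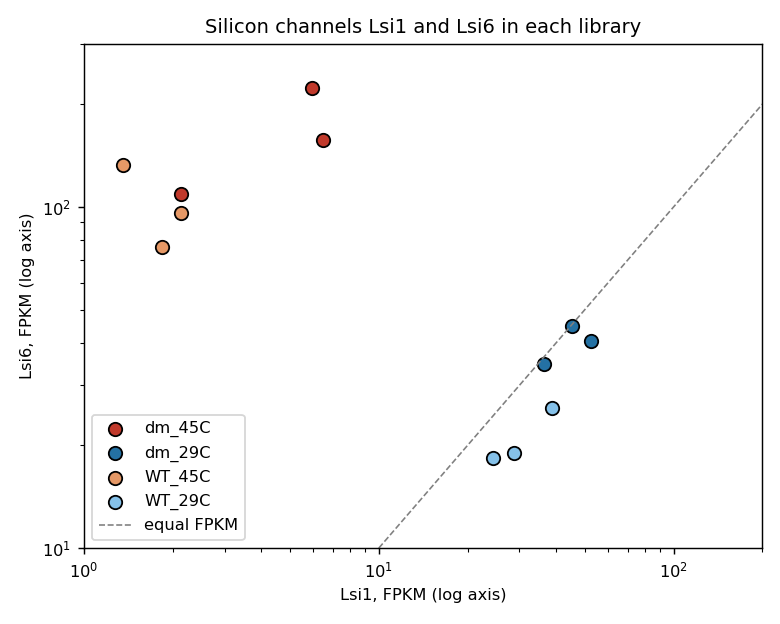
Lsi6 against Lsi1 in each of the 12 libraries, in FPKM on log axes, with a dashed line where both are equal. Heated libraries lie at the upper left (Lsi1 up to 6.45, Lsi6 from 76.03) and unheated ones at the lower right, on or just under the line (Lsi1 from 24.35, Lsi6 up to 44.65).

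Which TIP dominated the tonoplast set also changed with temperature. TIP1-2 supplied 60.4% ± 0.68 of the summed FPKM of the 5 TIPs in dm_45C, against 17.1% ± 2.52 in dm_29C, and 59.4% ± 6.35 in WT_45C, against 25.7% ± 4.2 in WT_29C (SD, n = 3 each). TIP1-1 supplied 32.7% ± 2.61 in dm_45C, against 66.8% ± 3.48 in dm_29C, and 34.7% ± 6.02 in WT_45C, against 50.6% ± 1.09 in WT_29C. The ranges of the heated and unheated groups are apart for both shares in both lines. Between lines the TIP1-1 share of unheated seedlings was also apart, at 64.3% to 70.7% in dm_29C and 49.6% to 51.8% in WT_29C, whereas the heated groups overlapped. TIP4-1 shrank to 1.57% ± 1.16 in dm_45C, against 7.33% ± 2.53 in dm_29C, and to 0.816% ± 0.331 in WT_45C, against 10.8% ± 3.62 in WT_29C. Shares of one sum are bound to each other, so they carry no test.

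**Figure D4:**
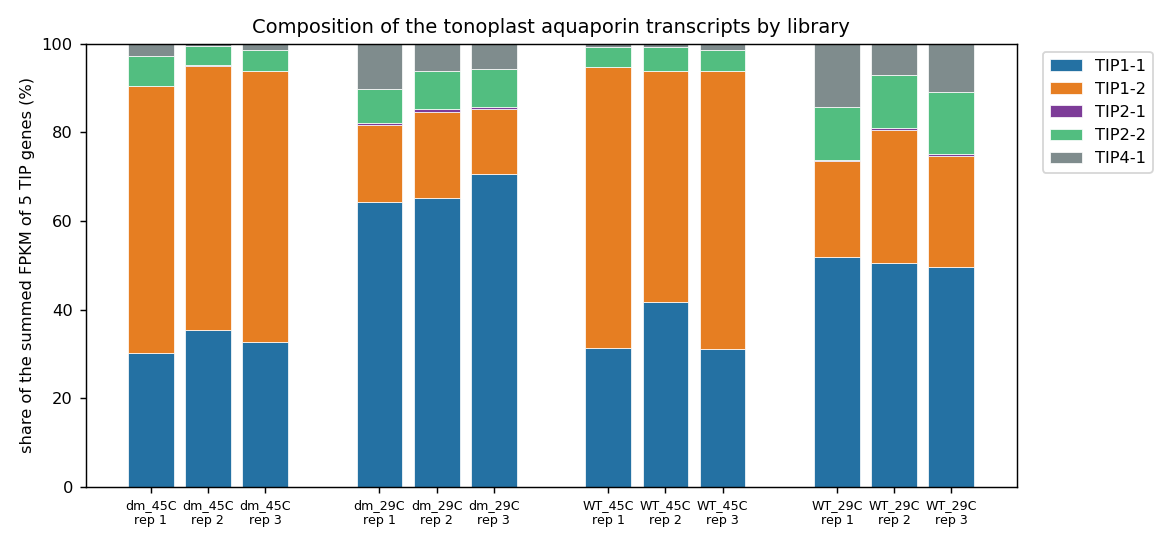
Share of each of 5 TIP genes in their summed FPKM (vertical axis, %), 1 bar per library. In heated libraries TIP1-2 takes between 52.1% and 63.5%, and in unheated libraries TIP1-1 is the largest part, between 49.6% and 70.7%.

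The summed level was higher in every heated library as well. The summed FPKM of the 5 TIPs averaged 1543 ± 630 in dm_45C, against 587 ± 26.2 in dm_29C, and 1689 ± 313 in WT_45C, against 405 ± 123 in WT_29C. As a share of all FPKM of the library this was 0.265% ± 0.101 in dm_45C, against 0.0999% ± 0.00507 in dm_29C, and 0.289% ± 0.0449 in WT_45C, against 0.0689% ± 0.0209 in WT_29C. The plasma membrane aquaporins (PIPs) let water across the outer membrane of the cell. The 11 PIPs summed to 1157 ± 621 in dm_45C and 1577 ± 208 in dm_29C, and to 1482 ± 483 in WT_45C and 1298 ± 331 in WT_29C, with overlapping ranges in both lines. TIP per PIP was 1.39 ± 0.247 in dm_45C, against 0.377 ± 0.0525 in dm_29C, and 1.18 ± 0.217 in WT_45C, against 0.31 ± 0.0323 in WT_29C, and neither pair of ranges overlapped.

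The order of the 7 genes by mean FPKM was the same in both heated groups: TIP1-2, TIP1-1, Lsi6, TIP2-2, TIP4-1, Lsi1 and TIP2-1. Most neighbours in this order were apart in range. The exceptions were TIP1-2 and TIP1-1 in dm_45C, although TIP1-2 was the higher in each of its 3 libraries, and Lsi6 and TIP2-2 in WT_45C. At 29 °C the order began with TIP1-1 and TIP1-2 and ended with TIP2-1 in both lines, while the genes between lay close together. TIP2-2, Lsi1, TIP4-1 and Lsi6 averaged 48.8, 44.7, 42.7 and 39.9 FPKM in dm_29C, where each overlapped the next. In WT_29C TIP2-2, TIP4-1, Lsi1 and Lsi6 averaged 51.9, 42.9, 30.6 and 21.1 FPKM and also overlapped from one to the next, as did TIP1-2 and TIP2-2, but TIP2-2 and TIP4-1 lay wholly above Lsi6. Lsi1 was above Lsi6 in each of the 6 unheated libraries.

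Between lines, none of the 7 genes passed at either temperature. Between dm_29C and WT_29C 0.241% of all tested loci passed (0.197% higher, 0.0443% lower), and between dm_45C and WT_45C 0.0197% (0.0148% higher, 0.00492% lower), which is 49 and 4 loci. At 29 °C limma called 0 of the 7 genes, with 2 at an unadjusted p under 0.05. Lsi6 averaged 39.9 ± 5.03 FPKM in dm_29C and 21.1 ± 4.1 in WT_29C, with no overlap (log2 difference 0.90 ± 0.27, 95% interval 0.32 to 1.48, adjusted p = 0.303). TIP1-1 averaged 393 ± 38.2 in dm_29C and 204 ± 57.7 in WT_29C, also with no overlap (0.97 ± 0.34, interval 0.23 to 1.71, adjusted p = 0.394). Of the 7 genes these 2 had groups apart, against 14.1% of the whole tested table. For TIP1-2, TIP2-2 and TIP4-1 the difference at 29 °C lay within 0.02 of 0, with intervals of -0.70 to 0.68, -0.58 to 0.54 and -0.69 to 0.74.

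At 45 °C limma again called 0 of the 7 genes between lines, with 2 at an unadjusted p under 0.05. Lsi1 averaged 4.84 ± 2.36 FPKM in dm_45C and 1.78 ± 0.393 in WT_45C (log2 difference 0.98 ± 0.31, interval 0.32 to 1.64, adjusted p = 0.488). The groups met at a single pair of libraries, 2.13 FPKM in dm_45C replicate 3 and 2.14 in WT_45C replicate 1. Without dm_45C replicate 3 the difference was 1.38 and passed (adjusted p = 0.0433, against 0.0433 to 0.926 over 21 alternatives), and 44 loci of the whole table passed instead of 4. Lsi6 averaged 163 ± 57.4 in dm_45C and 102 ± 28.9 in WT_45C (0.65 ± 0.27, interval 0.07 to 1.23, adjusted p = 0.586). All 7 pairs of groups overlapped, against non-overlap at 13.3% of all tested loci. Between same-numbered libraries, Lsi1, TIP4-1 and TIP2-1 were higher in dm_45C in 3 of 3 pairs and the other 4 genes differed in sign among pairs, where 30.9% of all tested loci had 3 pairs in 1 direction. With the replicate number as a block, 1 locus of the table passed and again none of the 7 genes, with Lsi1 at an adjusted p of 0.316.

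The test of whether heat acted differently in the lines called 0 of the 7 genes, with TIP1-1 alone at an unadjusted p under 0.05, and 3 of all loci (0.0148%, all of them lower; 0% higher). For the largest movers the intervals of the difference, double mutant minus wild type, were -1.13 to 0.82 for TIP1-2, -0.50 to 1.37 for Lsi1 and -1.06 to 0.57 for Lsi6.

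The rice aquaporin family, the 7 genes included, sets them in context. Of 33 family loci listed, 23 were measurable, that is at 1 FPKM or above in 3 libraries or more. With heat, 3 rose and 8 fell in the double mutant, and 4 rose and 5 fell in the wild type. The 7 genes gave 2 of these risers and 3 of the fallers in the double mutant, and 3 and 2 in the wild type. NIP1-2, set aside below, is counted as a faller in both lines. Over all tested loci 31.7% were called in the double mutant and 29.1% in the wild type. Of 5 further TIPs 2 were measurable. TIP4-2 stayed under 3 FPKM and did not pass (log2 difference -0.41 and -0.49). TIP4-3 fell to 3.75 ± 2.47 in dm_45C, against 13.1 ± 6.01 in dm_29C (log2 difference -1.60, limma adjusted p = 0.0108), and to 3.21 ± 1.91 in WT_45C, against 17.5 ± 2.6 in WT_29C (-2.23, adjusted p = 0.00178). TIP3-1, a seed TIP, and TIP5-1 were at 0 in all libraries.

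Of the other 10 NIP and SIP genes (SIPs are small basic intrinsic proteins), 7 were measurable, and 3 fell in the double mutant and 1 in the wild type, with none rising. Over all tested loci 16.4% were called lower in the double mutant and 15.8% in the wild type, and 15.3% and 13.3% higher. NIP1-2 is counted in both lines and averaged 0.57 ± 0.139 FPKM in dm_45C, against 10.8 ± 2.46 in dm_29C, and 0.257 ± 0.0513 in WT_45C, against 5.34 ± 1.39 in WT_29C. It reached the FPKM minimum through the unheated libraries alone, so a difference was built into its choice and these values are a description. NIP4-1 and NIP1-3 fell in the double mutant by 1.25 and 0.77 on the log2 scale (limma adjusted p = 0.00136 and 0.0269). In the wild type they did not pass (-0.48 and -0.24, adjusted p = 0.126 and 0.488). Their heat responses were not shown to differ between lines (limma adjusted p = 0.949 and 0.974). Among the NIPs and SIPs that were measurable, Lsi6 alone rose.

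Of 11 PIPs 7 were measurable, and 1 rose and 1 fell in each line. That is near the share called over all tested loci, 31.7% in the double mutant and 29.1% in the wild type. PIP2-6 rose to 80.3 ± 14.3 FPKM in dm_45C, against 40.8 ± 6.09 in dm_29C (0.95, limma adjusted p = 0.00855), and to 102 ± 3.59 in WT_45C, against 31.3 ± 9.99 in WT_29C (1.72, adjusted p = 0.000262). PIP2-2 fell in the double mutant by 1.23 (adjusted p = 0.00871). Its wild type groups were also apart, without passing (-0.85, limma adjusted p = 0.0513), and its heat responses were not shown to differ (adjusted p = 0.978). PIP2-7 fell in the wild type by 1.92 (adjusted p = 0.0181), although its groups overlapped. Both silicon exporters were too low to test.

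**Figure D5:**
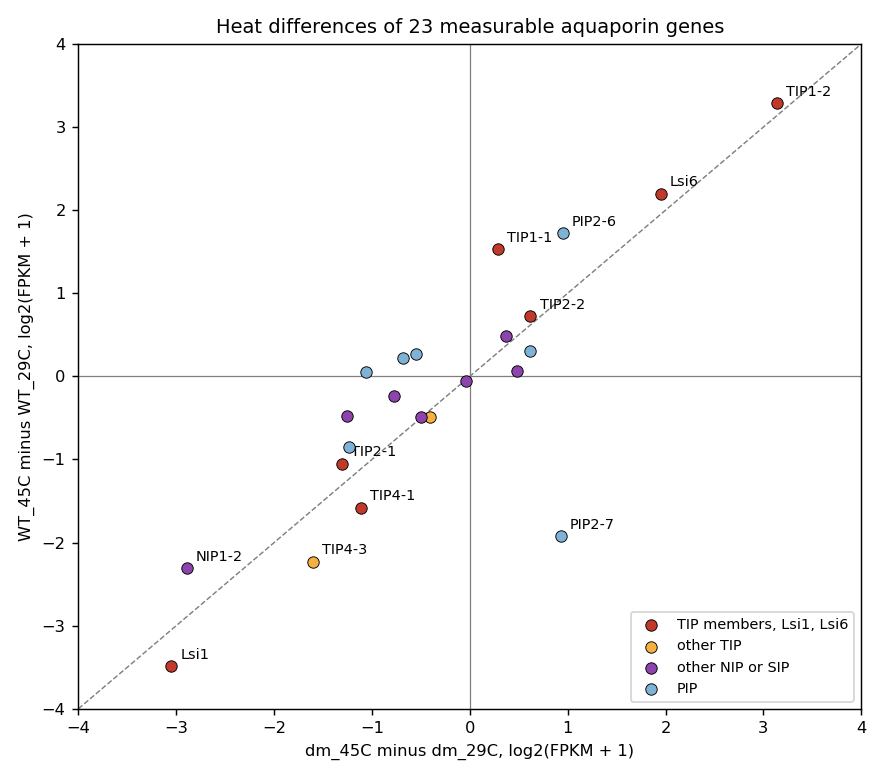
Heat differences of 23 measurable aquaporin genes on the log2(FPKM + 1) scale, in the double mutant (horizontal) and the wild type (vertical), with a dashed line where both are equal. TIP1-2 (3.14 and 3.29) and Lsi1 (-3.05 and -3.49) lie at the ends of the diagonal, and PIP2-7 (0.93 and -1.92) lies far from it, with a difference between lines that did not pass (adjusted p = 0.721).

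Likeness of pattern was measured as Pearson's r of log2(FPKM + 1) over the 12 libraries, which lie in 2 temperature clusters, so r largely follows temperature. Among listed genes, Lsi1 was closest to NIP1-2 (r = 0.959), Lsi6 to CESA4 (0.921) and TIP1-2 to the potassium channel AKT1 (0.942). NIP1-2 reached the FPKM minimum through unheated libraries alone and CESA4 through heated ones alone. A difference with temperature was thus built into their choice, and these r values are a description. Over deviations from the group means r was 0.113 for Lsi1 with NIP1-2, 0.360 for Lsi6 with CESA4 and 0.203 for TIP1-2 with AKT1. TIP4-1 was closest to Lsi1 (0.855), TIP2-1 to PIP2-2 (0.824), and TIP1-1 and TIP2-2 to VHA-B, a subunit of the vacuolar proton pump (0.822 and 0.848). With the same partners, r over deviations was 0.017 for TIP4-1, 0.883 for TIP2-1, 0.784 for TIP1-1 and 0.579 for TIP2-2. Over all tested loci the closest were LOC_Os06g16450 for Lsi1 (0.989), LOC_Os01g04380 for TIP1-2 (0.984), LOC_Os01g42870 for Lsi6 (0.959) and LOC_Os08g14570 for TIP1-1 (0.939), which the deposited table does not name. LOC_Os01g04380 averaged 204 ± 96.4 FPKM in dm_45C, against 2.71 ± 0.52 in dm_29C, and 268 ± 170 in WT_45C, against 4.79 ± 3.91 in WT_29C. Each was picked for its likeness over these libraries, so its levels are a description. LOC_Os08g14570 averaged 12.1 ± 5.33 FPKM in dm_45C, against 9.74 ± 2.79 in dm_29C, and 14 ± 5.31 in WT_45C, against 4.4 ± 0.459 in WT_29C.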

How the data were processed

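RNA of 12 rice seedling libraries was read as pairs; the deposited values are FPKM, 1 column per library, per the file headers. The tools listed in the submitters' processing notes, with no role, are StringTie 1.3.4d, HISAT2 2.0.4, cutadapt 1.9, edgeR, DESeq2 and UMI-tools. Coordinates are left out because the build was not given in the sources used here, and reads shared by close paralogues cannot be apportioned. Read counts and depth are unknown, so no counting interval is given. Groups follow the titles; mutant columns bear a code of their own and were matched by elimination. The members and gene lists were chosen with earlier results of these data known.

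A locus was tested if 3 libraries or more reached 1 FPKM, which left 20305. The deposited FPKM were turned into log2(FPKM + 1) values here, and limma 3.58.1 (R 4.3.3) was fitted to all 12 libraries at once, with a mean per group (4) and a variance trend on intensity. The fit was tried on simulated data with independent noise and with changes in loci of higher level only. That trial covers neither deviations shared by a library nor changes in genes as low as TIP2-1. Adjusted p-values are Benjamini-Hochberg values over all tested loci in each of 5 comparisons, and an adjusted p under 0.05 passed. Exact permutation tests of 3 against 3 libraries cannot go below 0.1 and are not printed. All 7 members are named; of other lists, passing genes with the highest mean FPKM are. Gene names were entered by hand from published locus assignments; 45 of 66 listed loci have a RefSeq name (assembly ASM3414082v1) on the same chromosome, all 7 members included. The alternatives were 0.1 added in place of 1, no filter, a filter at FPKM 5, rescaling to TPM, median-of-ratios and quantile scaling, each library left out, both mutant replicate 1 libraries left out, a replicate block, and only the groups compared. Deviations from the group means of same-numbered libraries of dm_45C and WT_45C correlated weakly (r = 0.106, 0.293 and 0.141). Between unlike-numbered libraries of these groups r ran from -0.193 to 0.0591. Deviations within a group sum to 0, which binds these values to each other, so they do not establish a pairing. The labels name none. The fit without the block stays the reported one, and blocked values stand beside that comparison. Plots used Python 3.11.15 and matplotlib 3.10.9.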

Additional observations from a re-analysis of the deposited data

How the results depend on the processing

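Over 721 settings of single genes, 665 kept direction and side of the threshold. The heat calls of TIP1-2, Lsi1 and Lsi6 in both lines, and of TIP1-1 and TIP4-1 in the wild type, held in each of their 21 alternatives. For heat in the double mutant, between 1 and 3 members fell when 1 library was left out, with 1 without dm_45C replicate 3. Between lines at 45 °C, 0 to 1 members were higher when 1 library was left out. In the wild type, TIP2-1 passed in 8 of 19 alternatives and TIP2-2 in 8 of 21, the replicate block among them (adjusted p = 0.0406 and 0.0494), which gave 4 risers and 3 fallers; the block changed no other call of a member. The labels pair no libraries by number in any comparison. Deviations of same-numbered libraries of dm_45C and dm_29C correlated at 0.14, 0.046 and 0.135. In the other comparisons these correlations ran down to -0.122, for replicate 3 of WT_45C and WT_29C.

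Directions turned only for values that were not called, and the cause was not tested. Their reported log2 differences ran from -0.27 (TIP1-1 between lines at 45 °C) to 0.29 (TIP1-1 with heat in the double mutant). When 1 library was left out, the log2 difference ran from -0.08 to 0.63 for TIP1-1 with heat in the double mutant. Between lines at 29 °C it ran from -0.32 to 0.21 for TIP1-2, from -0.25 to 0.27 for TIP2-2 and from -0.27 to 0.28 for TIP4-1. Between lines at 45 °C it ran from -0.63 to 0.07 for TIP1-1, from -0.46 to 0.12 for TIP1-2 and from -0.30 to 0.02 for TIP2-2. For the difference of heat responses it ran from -0.45 to 0.15 for TIP1-2, from -0.67 to 0.02 for TIP2-1, from -0.41 to 0.12 for TIP2-2 and from -0.51 to 0.01 for Lsi6. Without both mutant replicate 1 libraries, TIP1-2, TIP2-2 and TIP4-1 at 29 °C gave 0.00, 0.06 and -0.21, TIP1-1 and TIP1-2 at 45 °C gave 0.07 and 0.12, and the difference of heat responses of TIP1-2 gave 0.12. Quantile scaling gave 0.01 for TIP1-2 at 29 °C, and 0.1 in place of 1 gave 0.53 for the difference of heat responses of TIP2-1.

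Over the whole table, between 9 (without dm_29C replicate 2) and 64 loci passed between lines at 29 °C, against 49 as reported. At 45 °C it was 1 (replicate block, or without replicate 1 of WT_45C or of WT_29C) to 44 (without dm_45C replicate 3), against 4. For the difference of heat responses it was 0, in 13 alternatives, to 11 (without dm_45C replicate 2), against 3. For heat in the double mutant, 3822 passed without both replicate 1 libraries, against 6430. Which of the other named genes, outside the TIPs and silicon channels defined at the opening, kept their calls was not checked. Unknown depth limits what can be said of TIP2-1.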

Other observations

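Beside the channels, the pumps and carriers of the tonoplast held genes called in both directions with heat. Of 10 listed genes, 1 rose and 3 fell in the double mutant and 2 rose and 4 fell in the wild type, with a median log2 difference of -0.43 and -0.59. That is 4 and 6 of 10, where 31.7% and 29.1% of all tested loci were called. CAX1a, a vacuolar calcium/proton exchanger, averaged 30.4 ± 15 FPKM in dm_45C and 74.5 ± 8.15 in dm_29C (log2 difference -1.39, limma adjusted p = 0.00948). In the wild type CAX1a did not pass (-0.65, adjusted p = 0.183). The sucrose exporter SUT2 fell in both lines, by 0.66 in the double mutant (adjusted p = 0.0323) and 0.64 in the wild type (adjusted p = 0.0387), as did the sugar carrier TMT1, by 1.01 (adjusted p = 0.0117) and 1.15 (adjusted p = 0.00634). VHA-B, subunit B of the vacuolar proton ATPase, rose in the wild type to 153 ± 29.1 FPKM in WT_45C, against 92.9 ± 7.74 in WT_29C (0.70, adjusted p = 0.0118). The proton pyrophosphatase OVP1 fell to 20.9 ± 5.08 in WT_45C, against 53.4 ± 31.7 in WT_29C (-1.19, adjusted p = 0.0335). In the double mutant VHA-B differed by 0.49 (limma adjusted p = 0.0545) and OVP1 by -0.92 (adjusted p = 0.0818), each with groups apart. The heat responses of CAX1a, VHA-B and OVP1 were not shown to differ between lines (limma adjusted p = 0.974, 0.978 and 0.982). The sodium/proton antiporter NHX1, named after its values were seen as the one riser of the double mutant, averaged 15.7 ± 2.81 in dm_45C and 6.51 ± 0.824 in dm_29C (1.14, adjusted p = 0.00938). NHX1 rose in the wild type too, to 13.9 ± 6.1 in WT_45C, against 5.68 ± 0.381 in WT_29C (1.06, adjusted p = 0.0153).

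Within groups, 4 TIPs deviated together from one library to the next. Over deviations of log2(FPKM + 1) from the group means in 12 libraries, Pearson's r of TIP1-1 was 0.928 with TIP2-1, 0.859 with TIP2-2 and 0.808 with TIP1-2, and its closest listed gene was PIP1-1 (0.950). TIP4-1 ran the other way, at -0.516 with TIP1-1, and Lsi1 and Lsi6 showed little of this (-0.135 and -0.138 with TIP1-1). PIP2-2 reached 0.883 with TIP2-1 and 0.854 with TIP1-2, so shared deviations were not particular to TIPs. How common such values are over all tested loci was not tested. These values share libraries, and TIP2-1 was under 1 FPKM in 6 of them. The measure was added after the values were seen. In dm_45C replicate 2, 5 of the 7 genes had their highest value of the group, and 5 of the 7 did in WT_29C replicate 3. The share of all tested loci with this trait was not taken. The summed FPKM of the PIPs was also highest in these libraries. It was 1872 in dm_45C replicate 2, against 747 and 853 in replicates 1 and 3. In WT_29C it was 1679 in replicate 3, against 1089 and 1125 in replicates 1 and 2.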
